A study of Mus musculus with 383 samples.

Results

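Npy2r-positive vagal motor nuclei were compared with Npy2r-negative ones among single nuclei of the mouse dorsal motor nucleus of the vagus. Both classes were chosen by measured reads. A nucleus entered with at least 500000 reads, at least 1000 genes with a read, a read of Chat or Slc5a7, a read of Tbx20 and no read of Cck. Of 383 nuclei, 295 met the minimum of reads and of genes, 294 also carried a cholinergic gene, 265 also carried Tbx20 and 244 also lacked Cck. Among these 244, 147 had at least 5 Npy2r reads per 1000000 reads of the nucleus (CPM) and were called positive, 88 had no Npy2r read and were called negative, and 9 lay between and entered neither class.

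Male Chat-IRES-Cre mice of C57BL/6 strain, given in the series' design as C57Bl6/j background, received 100 nL of AAV9-DIO-H2b-mCherry in the dorsal motor nucleus at 10 weeks of age. Tissue was taken 16 days later, and the design text gives an age of 12 weeks. The series concerns genetically defined vagal motor neurons and their output to the gut. Both classes come from the same pool of animals, with the same allele and the same virus, and no treatment separates them. Nuclei positive for mCherry and for the DNA dye NucBlue were sorted as singlets, 1 to a well of 96-well plates, and sequenced after Smart-seq2 with 22 PCR cycles.

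Cre is made here in cholinergic cells, so the nuclei are those that expressed Cre and took up the virus, not a full sample of the region. Dissected tissue was pooled and the labels name no animal or plate. All nuclei therefore count as 1 sample, and nuclei are not replicates. The differences below are sizes, with no test behind them. Shares carry exact Clopper-Pearson 95% intervals over nuclei, which cover counting error only and take the nuclei as independent. They hold no variation between animals, and some libraries closely matched another, as described below. PCR copies carry no molecular identifiers, so reads are not separate molecules. The protocol mentions sections next to the SCN, which does not match the tissue given in the labels.

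The dorsal motor nucleus of the vagus holds the preganglionic parasympathetic neurons that send their axons through the vagus nerve to the gut, pancreas and other organs. Npy2r encodes the Y2 receptor, an inhibitory Gi/o-coupled receptor for neuropeptide Y and for peptide YY, a hormone of the gut. In the vagus it is best known from sensory neurons.

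Depth was similar in both classes, with a median of 1442760 reads in positive nuclei and 1485938 in negative nuclei, and 159 to 4699420 reads over all 383 nuclei. Each compared nucleus was thinned to 500000 reads, where 1 read is worth 2 CPM, and the median nucleus then had a read of 10414 genes in the positive class and 10152 in the negative class. Reads on mitochondrial genes made up a median of 0.110% in positive and 0.0575% in negative nuclei, and ribosomal protein genes 0.154% and 0.139%. Summed markers of glia, vascular and ependymal cells had a median of 148 CPM in positive nuclei (highest 1460) and 149 CPM in negative nuclei (highest 4390). Whether the mitochondrial share has a part in the results was not tested.

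Some libraries stood apart by how closely they matched another. Among the 295 nuclei with enough reads, 23 libraries fell into 10 pairs and 1 trio whose log counts correlated at r = 0.817 to 0.981, while no other pair exceeded 0.768 and the median was 0.584 (across genes, which are not independent). In 9 of the pairs the counts differed by 1.33 to 3.69 times sampling noise (chi-square per degree of freedom), and in the trio by 3.21 to 14.3 times, against a lowest value of 35.6 and a median of 76.9 over 40 other pairs. The remaining pair, at 67.3, lay within the range of the other pairs and was matched by correlation alone. Of the 11 groups of closely correlated libraries, 10 had consecutive nucleus numbers, and 10 lay between 193 and 288. They held 18 positive and 2 negative nuclei. With 1 library per group, an alternative chosen after seeing the data, 138 positive and 87 negative nuclei were left, and without any of them 129 and 86. No named gene's difference moved by more than 2.09 percentage points with 1 library per group or 3.20 points without any (Mc4r in both).

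Npy2r itself chose the classes, so its values are a description. In positive nuclei it ranged from 5.79 to 684.5 CPM, with a median of 139.3 CPM, and the middle of the range ran from 77.2 to 235.9 CPM. That was 7 to 1326 reads per nucleus, with a median of 213. Few nuclei lay near the limit. The lowest positive nuclei had 5.79, 6.54, 7.88, 16.9 and 19.5 CPM, and the 9 nuclei between the classes had 0.401 to 4.35 CPM from 1 to 6 reads. Of the positive nuclei, 6 lay between 5 and 20 CPM, 15 between 20 and 50, 39 between 50 and 100, 40 between 100 and 200, 39 between 200 and 400 and 8 above. After thinning, 146 of 147 positive nuclei still had an Npy2r read.

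**Figure D1:**
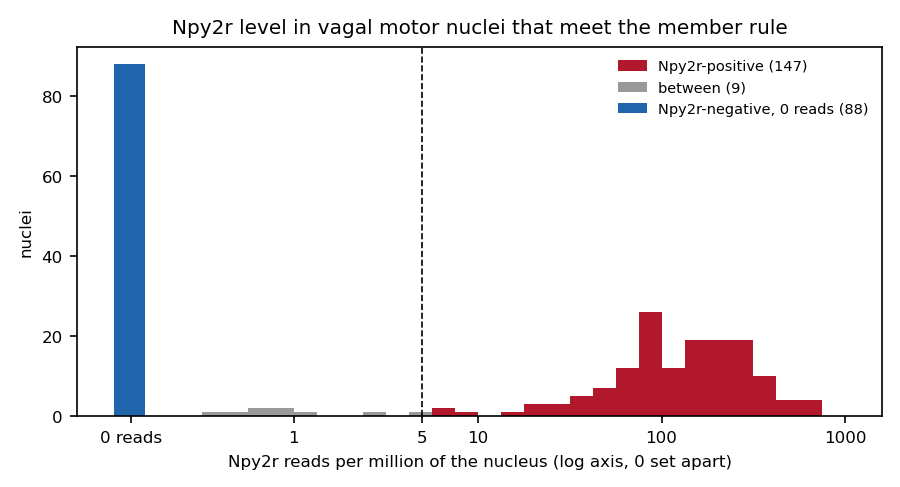
Number of nuclei (vertical axis) by Npy2r CPM (horizontal log axis, with 0 set apart) for the 244 nuclei that met the member rule; the dashed line marks 5 CPM. The 147 positive nuclei centre on 139.3 CPM and only 9 nuclei fall between them and the 88 nuclei without a read.

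Npy2r lies on chromosome 3, 82538383 to 82548084 on the minus strand (GRCm38, GENCODE vM21), and no other annotated gene overlaps it. The next genes differed little in share. Map9 was read in 91.8% of positive and 90.9% of negative nuclei and Rbm46 in 30.6% and 20.5%. Dchs2, a protocadherin-related gene further along, was read in 81.6% and 69.3%, with a mean log2(CPM + 1) 1.65 higher in positive nuclei.

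Over all genes, the classes differed in a limited set. Of 29779 genes in the table, 17500 were read in at least 10% of the compared nuclei. The rule genes Npy2r, Cck, Tbx20, Chat and Slc5a7 were left out of the counts. By a limit of 25 percentage points in the share of nuclei with a read, 62 genes were higher in positive nuclei, which is 0.354% of those compared, and 25 were lower, which is 0.143%. By a limit of 1 unit in mean log2(CPM + 1), 302 were higher (1.73%) and 178 lower (1.02%). The median gene differed by 0.912 points and 0.03 log2 units. At these class sizes a difference of 25 points by itself keeps the intervals of both classes apart, as in all 87 genes past the share limit. Of these, 59 of the 62 and all 25 also passed the level limit. With 1 library per closely correlated group the counts were 56, 25, 291 and 192, of which 53, 23, 279 and 175 were shared with the counts above. Without any such library they were 53, 31, 274 and 202.

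**Figure D2:**
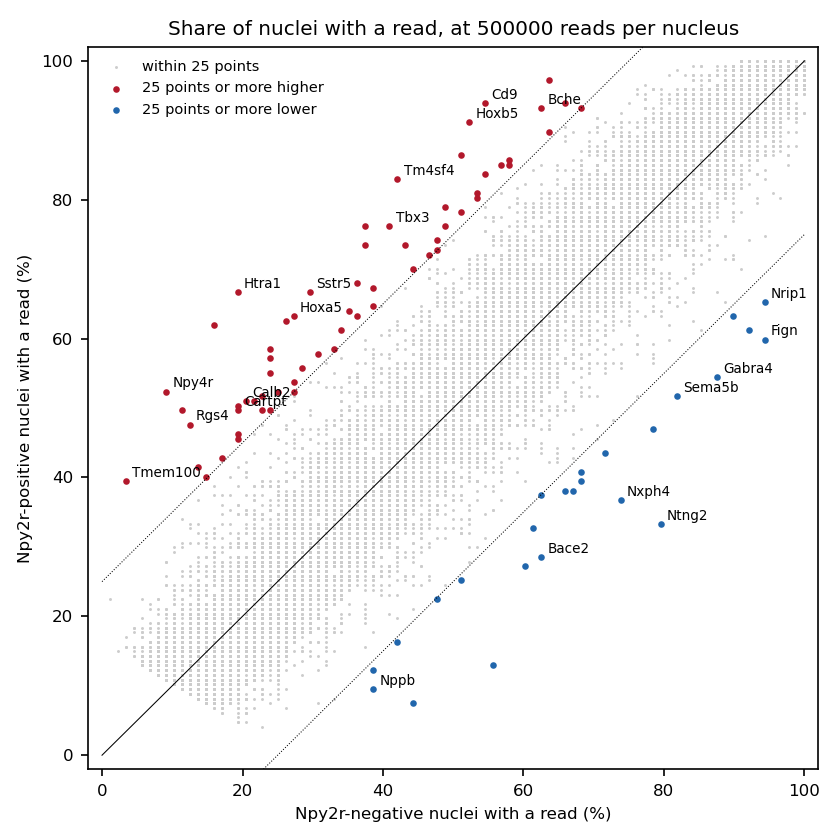
Share of Npy2r-positive nuclei with a read (vertical axis, %) against the share of Npy2r-negative nuclei (horizontal axis, %) for the 17500 genes compared, at 500000 reads per nucleus; dotted lines mark 25 points. Red points are the 62 genes past the limit in positive nuclei and blue points the 25 past it in the other direction.

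Among genes of the neuropeptide Y system, Npy4r was the one that went with Npy2r. Npy4r encodes the Y4 receptor, whose main ligand is pancreatic polypeptide. In positive nuclei it ranged from 0 to 492 CPM with a median of 4 CPM, and in negative nuclei from 0 to 74 CPM with a median of 0. It was read in 77 of 147 positive nuclei (52.4%, 44.0 to 60.7) and in 8 of 88 negative nuclei (9.09%, 4.01 to 17.1). Means were 64.4 ± 104 CPM and 2.55 ± 10.8 CPM (SD over nuclei), a difference of 2.79 log2 units. The ranges overlapped, since 70 positive nuclei had no Npy4r read. Of the 85 compared nuclei with an Npy4r read, 90.6% were Npy2r-positive (82.3 to 95.8), against 46.7% of the 150 without one (38.5 to 55.0).

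The other Y receptors were seldom read in either class. Npy1r was read in 8.16% of positive and 6.82% of negative nuclei, Npy5r in 2.72% and 3.41%, and Npy6r in 2.72% and 1.14%. The ligand genes were as rare, with Npy in 4.08% and 2.27% and Ppy, the gene of pancreatic polypeptide, in 2.04% and 1.14%. Dpp4, whose peptidase trims neuropeptide Y and peptide YY, was read in 12.9% and 15.9%. Of the 9 listed genes 8 were in the table and 2 were compared, and Npy4r alone passed the limits.

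The start regions of the receptor genes that moved together are shown here, 300 bases each, 250 before and 50 after the RefSeq start (GRCm38.p6), read 5′ to 3′ on the gene's strand. Npy2r is from chr3:82548036-82548335 and Npy4r from chr14:34152370-34152669, both minus strand. No letters are in capitals, because none of the motifs searched below is in these windows.
Npy2r: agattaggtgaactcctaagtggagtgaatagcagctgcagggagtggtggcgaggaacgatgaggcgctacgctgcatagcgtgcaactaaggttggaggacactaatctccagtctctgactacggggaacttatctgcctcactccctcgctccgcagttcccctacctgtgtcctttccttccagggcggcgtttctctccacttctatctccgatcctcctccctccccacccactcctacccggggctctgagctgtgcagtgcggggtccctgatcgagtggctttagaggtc
Npy4r: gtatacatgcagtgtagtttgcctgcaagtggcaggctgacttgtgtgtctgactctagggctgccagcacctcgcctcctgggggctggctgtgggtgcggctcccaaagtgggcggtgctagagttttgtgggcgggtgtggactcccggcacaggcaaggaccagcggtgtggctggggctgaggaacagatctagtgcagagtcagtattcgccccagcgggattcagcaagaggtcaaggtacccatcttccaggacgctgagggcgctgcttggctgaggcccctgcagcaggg

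Hox genes had the highest median difference in share of the 18 lists in favour of positive nuclei, while the neuropeptide Y list, with 2 genes compared, was higher in log2 units (1.33). These transcription factors are laid out along the hindbrain and spinal cord during development, and mark position from front to back. All 12 Hox genes compared were read in a larger share of positive nuclei, with a list median of 20.8 points and 0.84 log2 units. In all, 4 passed the share limit and 4 the level limit, and none passed in the other direction. Of all genes compared, 0.354% were higher by share and 1.73% by level. Hoxb5 was read in 134 of 147 positive nuclei (91.2%, 85.4 to 95.2) and 46 of 88 negative nuclei (52.3%, 41.4 to 63.0), with a median of 38 CPM (0 to 182) in positive and 3 CPM (0 to 120) in negative nuclei. Hoxa5 was read in 63.3% (54.9 to 71.1) and 27.3% (18.3 to 37.8), Hoxc5 in 50.3% (42.0 to 58.7) and 19.3% (11.7 to 29.1), and Hoxb4 in 63.3% and 36.4% (26.4 to 47.3). Hoxc4 passed by level, 1.90 log2 units higher, at 96.6% and 77.3%.

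By paralog group, the difference was widest in groups 4 and 5. Hoxd4 was read in 46.3% of positive and 21.6% of negative nuclei, Hoxb3 in 62.6% and 45.5%, Hoxd3 in 59.9% and 37.5%, and Hoxb2 in 29.9% and 21.6%. From group 6 on, reads were rare in both classes. Hoxb6 was read in 11.6% and 4.55% and Hoxc6 in 2.04% and 1.14%. Hox genes overlap each other in the annotation: Hoxa5 overlaps Hoxa3 and the antisense Hoxaas3, Hoxb5 overlaps the antisense Hoxb5os, and Hoxc5 spans Hoxc6 to Hoxc10. Hoxa3 and Hoxc6 to Hoxc10 lie on the same strand as the genes they overlap, where strand would not separate reads. For the antisense pairs, whether the counting used strand is not given in the sources used here. Reads of all these pairs may therefore not be separable.

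**Figure D3:**
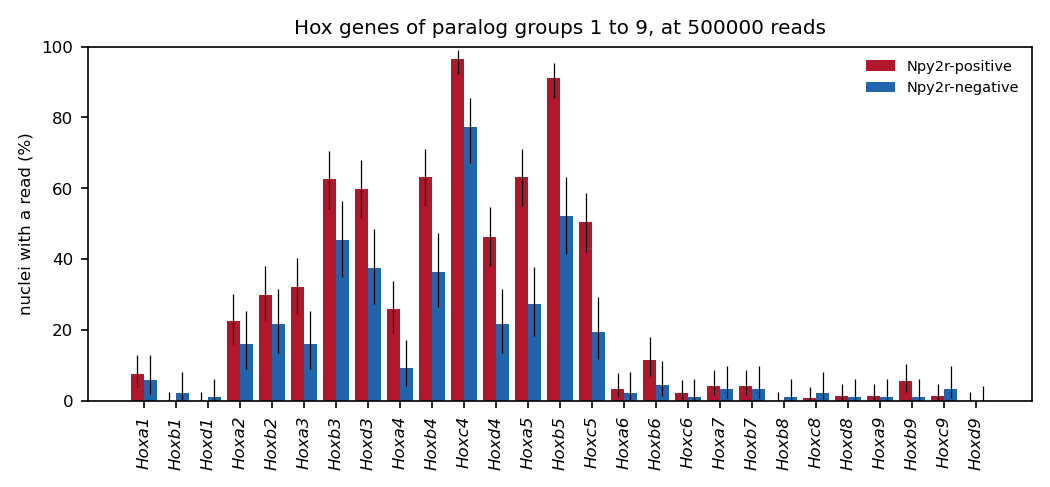
Share of nuclei with a read (vertical axis, %) for Hox genes of paralog groups 1 to 9, in order of group; red bars are Npy2r-positive and blue bars Npy2r-negative nuclei, with exact 95% intervals as lines. The bars of groups 4 and 5 are higher in positive nuclei, and those from group 6 on are low in both classes.

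Other transcription factor genes went both ways by level. Of 64 compared genes of visceral motor and hindbrain factors, 1 was higher by share, and 5 were higher and 5 lower by level. Over all genes compared, 0.354% were higher by share, and 1.73% were higher and 1.02% lower by level. Tbx3, a T-box repressor, was read in 76.2% of positive nuclei (68.5 to 82.8) and 40.9% of negative nuclei (30.5 to 51.9). Its antisense partner Tbx3os1, which overlaps it, was read in 73.5% and 43.2%, and the counts of both may mix. Genes higher by level included Nr4a2, an orphan nuclear receptor, at 1.20 log2 units (95.9% and 79.5%), and Tshz3 at 1.49 units. The 5 lower genes were Meis2 (-1.85), Tshz2 (-1.62), Onecut2 (-1.34), Zeb2 (-1.08) and Nr3c1, the glucocorticoid receptor (-1.01).

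Of the receptors for other peptides and hormones, 4 of 50 compared genes were higher by share and none was lower. Over all genes compared, 0.354% were higher by share and 0.143% lower. Sstr5, an inhibitory somatostatin receptor, ranged from 0 to 306 CPM with a median of 32 CPM in positive nuclei, and from 0 to 80 CPM with a median of 0 in negative nuclei. It was read in 98 of 147 (66.7%, 58.4 to 74.2) and 26 of 88 (29.5%, 20.3 to 40.2). Mc4r, the melanocortin receptor of energy balance, was read in 51.7% (43.3 to 60.0) and 22.7% (14.5 to 32.9). Crhr1, the receptor for corticotropin-releasing hormone, was read in 55.8% and 28.4%, and Ntsr1, a neurotensin receptor, in 49.7% and 23.9%. By level, Ghr, the growth hormone receptor, differed most in this list. It had a median of 752 CPM (0 to 4994) in positive and 69 CPM (0 to 1548) in negative nuclei, 3.62 log2 units apart. Npffr1 and Npr2 were 1.68 and 1.23 units higher, and Npffr2, a receptor for neuropeptide FF, was lower (-2.06).

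Cckar, the receptor through which cholecystokinin acts on vagal neurons, differed little in share. It was read in 40 of 147 positive nuclei (27.2%, 20.2 to 35.2) and 28 of 88 negative nuclei (31.8%, 22.3 to 42.6), and their intervals overlap. Nos1, the neuronal nitric oxide synthase of vagal motor neurons, was read in 95.9% and 90.9%, 0.15 log2 units apart. None of 5 opioid and cannabinoid receptor genes passed either limit. With at most 1.73% of all genes compared past a limit in either direction, 5 genes would mostly hold none.

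Neuropeptide and secreted-ligand genes went both ways, with 2 of 30 higher and 2 lower by share, and 4 higher and 2 lower by level. Among all genes compared, the shares in that order were 0.354%, 0.143%, 1.73% and 1.02%. Cartpt, the precursor of CART peptides that limit feeding, was read in 73 of 147 positive nuclei (49.7%, 41.3 to 58.0) and 17 of 88 negative nuclei (19.3%, 11.7 to 29.1), with highest values of 720 and 432 CPM and medians of 0. Cbln2, a cerebellin of synapse formation, was read in 74.1% and 47.7%. By level Cbln1 and Nts, the neurotensin precursor, were also higher (1.05 and 1.12 log2 units). Nppb, the precursor of brain natriuretic peptide, was read in 14 positive nuclei (9.52%, 5.31 to 15.5) and 34 negative nuclei (38.6%, 28.4 to 49.6). Nxph4, a neurexophilin, was read in 36.7% (28.9 to 45.1) and 73.9% (63.4 to 82.7). Of 14 granin and prohormone-processing genes none passed by share, and the convertases Pcsk1 and Pcsk2 were higher by level (1.17 and 1.23).

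**Figure D4:**
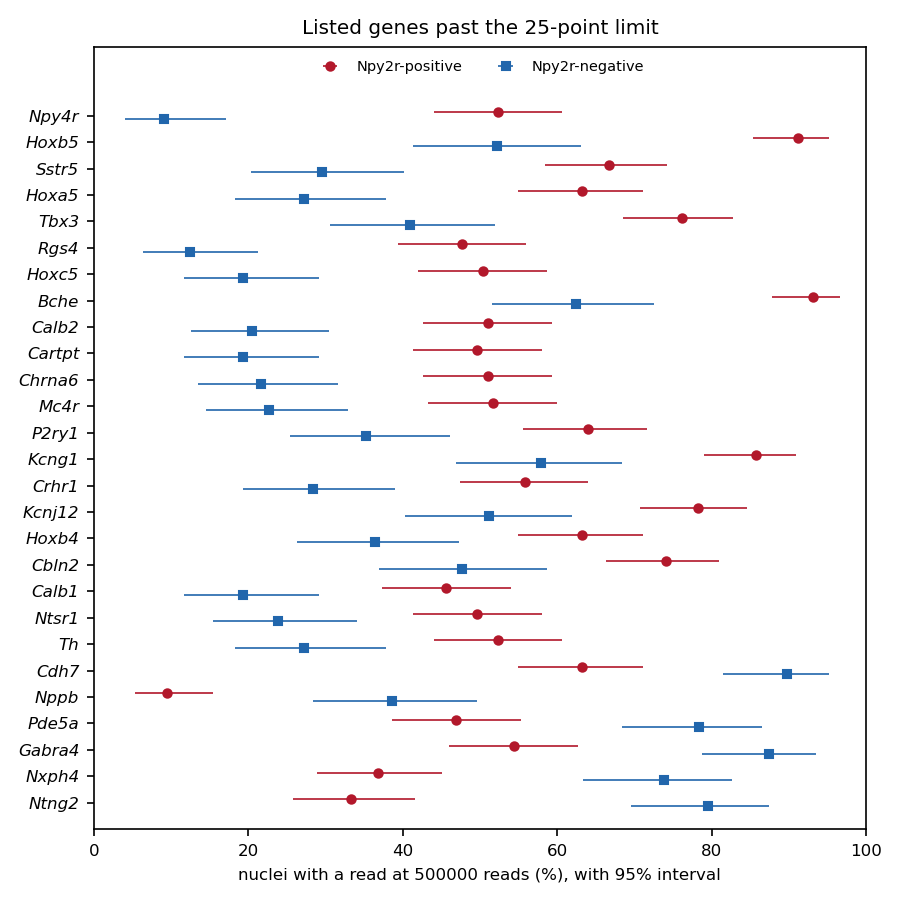
Share of nuclei with a read (horizontal axis, %) for the 27 genes of the function lists past the 25-point limit, ordered by difference; red circles are Npy2r-positive and blue squares Npy2r-negative nuclei, and lines are exact 95% intervals. Npy4r (52.4% and 9.09%) heads the 21 higher genes, and Ntng2 (33.3% and 79.5%) is last of the 6 lower ones.

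Signalling genes downstream of inhibitory receptors leaned to positive nuclei by level. Of 46 compared genes of Gi signalling, 6 were higher by level and none was lower, and 1 was higher by share. That gene was Rgs4, whose protein speeds the shut-off of Gi and Gq signals, read in 70 positive nuclei (47.6%, 39.3 to 56.0) and 11 negative nuclei (12.5%, 6.41 to 21.3). The others were Rgs9 (1.53), Rgs6 (1.52), the receptor kinase Grk3 (1.44), Rgs2 (1.43) and the G protein subunit Gnai1 (1.14 log2 units). The list's median difference was 0.31 log2 units, against 0.03 over all genes compared. Of all genes compared, 1.73% were higher and 1.02% lower by level, and 0.354% were higher by share.

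Receptors for amines, acetylcholine and nucleotides went both ways. Of 39, 2 were higher and none lower by share, and 3 were higher and 3 lower by level. In the same order, all genes compared gave 0.354%, 0.143%, 1.73% and 1.02%. Chrna6, a nicotinic receptor subunit, was read in 51.0% of positive nuclei (42.7 to 59.3) and 21.6% of negative nuclei (13.5 to 31.6), and P2ry1, a receptor for ADP, in 63.9% and 35.2%. P2rx2, an ATP-gated channel, was 1.32 log2 units higher. The lower ones were the serotonin receptors Htr2c (-2.69) and Htr4 (-1.60) and the muscarinic receptor Chrm3 (-1.06).

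Of 43 receptors for GABA, glycine and glutamate, none was higher and 1 lower by share, with 3 higher and 6 lower by level. For all genes compared, these shares were 0.354%, 0.143%, 1.73% and 1.02%. Gabra4, a GABA-A receptor subunit, was read in 54.4% of positive nuclei (46.0 to 62.6) and 87.5% of negative nuclei (78.7 to 93.6). Gabrb1 overlaps it on the opposite strand. By level, the alpha subunits Gabra4 (-2.58 log2 units), Gabra2 (-1.27) and Gabra5 (-1.23) were lower. Gabrg3 and the NMDA receptor subunit Grin2a were higher (1.44 and 1.72), and Gria3 and Glra2 lower (-1.18 and -1.11).

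Ion channel genes had 2 of 111 higher by share and none lower, and 9 higher and 4 lower by level. Across all genes compared the shares were 0.354% and 0.143%, then 1.73% and 1.02%. Kcng1, a silent potassium channel subunit that modifies Kv2 channels, was read in 85.7% of positive and 58.0% of negative nuclei, and Kcnj12, an inward rectifier, in 78.2% and 51.1%. Subunits of the ATP-sensitive potassium channel, Abcc8 and Kcnj11, were higher by 1.81 and 1.07 log2 units, as were Kcnq5 (1.94) and Trpc7 (1.68). Trpm3 was among those lower by level (-2.60).

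Calcium-binding and nitric oxide pathway genes had 2 of 21 higher and 1 lower by share, and 6 higher and 2 lower by level. All genes compared had 0.354% and 0.143% by share, and 1.73% and 1.02% by level. Calb2, which encodes calretinin, was read in 51.0% of positive nuclei (42.7 to 59.3) and 20.5% of negative nuclei (12.6 to 30.4). Calb1, which encodes calbindin, was read in 45.6% (37.4 to 54.0) and 19.3% (11.7 to 29.1). Pde5a, the phosphodiesterase that breaks down cyclic GMP, was read in 46.9% and 78.4%. The cyclic GMP-dependent kinases split by level, with Prkg1 higher (2.25 log2 units) and Prkg2 lower (-1.17).

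Cholinergic genes beyond those of the rule differed in 1 of 7. Higher by share were 0.354% of all genes compared, and higher by level 1.73%. Bche, butyrylcholinesterase, was read in 93.2% of positive nuclei (87.8 to 96.7) and 62.5% of negative nuclei (51.5 to 72.6), 2.99 log2 units apart. Without thinning its difference was 13.6 points, under the limit. Slc18a3, the vesicular acetylcholine transporter, was read in 98.6% and 93.2% and Ache in 99.3% and 96.6%. Of 10 catecholamine genes, Th, tyrosine hydroxylase, was read in 52.4% (44.0 to 60.7) and 27.3% (18.3 to 37.8), just past the limit. With 1 library per closely correlated group the difference was 23.9 points, under the limit, and it was under it in 7 of 12 alternatives. Maoa and Maob, which break down monoamines, were higher by level (1.18 and 1.02). Dbh, needed for noradrenaline, was read in 21.8% and 13.6%, and the summed catecholamine markers had a median of 472 CPM (6 to 1558) in positive and 322 CPM (0 to 1416) in negative nuclei.

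Adhesion and axon guidance genes leaned the other way. None of 78 was higher and 2 were lower by share, and 8 were higher and 19 lower by level, with a list median of -0.17 log2 units. All genes compared gave 0.354% and 0.143% by share, and 1.73% and 1.02% by level. Ntng2, netrin-G2, a synaptic adhesion protein, was read in 49 of 147 positive nuclei (33.3%, 25.8 to 41.6) and 70 of 88 negative nuclei (79.5%, 69.6 to 87.4). It ranged from 0 to 260 CPM with a median of 0 in positive nuclei, and from 0 to 350 CPM with a median of 47 CPM in negative nuclei. Cdh7, a cadherin, was read in 63.3% and 89.8%. The netrin receptor Unc5d (-2.79), Pcdh9 (-2.42) and the secreted guidance factor Sema3c (-2.05) were among the lower genes, and the cadherin Cdh11 (2.32) and the semaphorin receptor Nrp2 (2.04) among the higher.

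No gene passed either limit among 13 immediate early genes, 12 genes induced by axon injury or 15 of the interferon response. Of all genes compared, 0.354% were higher and 0.143% lower by share, and 1.73% higher and 1.02% lower by level. At those rates lists this short would mostly hold none. Over the 18 lists, 719 genes were listed, 712 were in the table and 570 were compared. Of these, 21 were higher and 6 lower by share, and 62 were higher and 42 lower by level.

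Outside the lists, Htra1, a secreted serine protease, was read in 98 of 147 positive nuclei (66.7%, 58.4 to 74.2) and 17 of 88 negative nuclei (19.3%, 11.7 to 29.1); Fgfr2 overlaps it on the opposite strand. The tetraspanin Cd9 was read in 93.9% and 54.5%, the tetraspanin-like Tm4sf4 in 83.0% and 42.0%, and Mmp17, a membrane-bound metalloprotease, in 76.2% and 37.5%. Tmem100 was close to absent from the negative class, with a read in 58 positive nuclei (39.5%, 31.5 to 47.8) and 3 negative nuclei (3.41%, 0.709 to 9.64). Tmem114, Susd5 and Kif26a were read in 49.7%, 62.6% and 73.5% of positive nuclei, against 11.4%, 26.1% and 37.5% of negative nuclei. By level, the sortilin-related receptor Sorcs3 (3.70), Zfp536 (3.31) and the synaptotagmin Syt10 (2.96 log2 units) were higher. Gm45768, a non-coding gene outside the naming rule and picked after its values were seen, was read in 61.9% and 15.9%.

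In the other direction, Fign, which encodes the microtubule-severing protein fidgetin, had a median of 6 CPM (0 to 562) in positive nuclei and 212 CPM (0 to 754) in negative nuclei, and was read in 59.9% (51.5 to 67.9) and 94.3% (87.2 to 98.1). Its level difference was -3.89 log2 units. Bace2, a relative of beta-secretase, was read in 28.6% and 62.5%, Masp1, a complement-activating protease, in 27.2% and 60.2%, and Nrip1, a nuclear receptor corepressor, in 65.3% and 94.3%. The guidance genes Ephb1 and Sema5b were read in 61.2% and 51.7% of positive nuclei, against 92.0% and 81.8% of negative nuclei, and without thinning Ephb1 was at -19.7 points, under the limit. Popdc3 was read in 43.5% and 71.6%. By level, Cntnap4, a neurexin relative, was lower (-3.37), as were Crim1 (-3.16), Pde3a (-3.05) and Olfm3 (-3.03).

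No single gene among these divided the classes, but counted together they did so for most nuclei. Of the 12 genes named for the widest higher shares, the median positive nucleus had a read of 8 and the median negative nucleus of 3. Of the 12 named for the widest lower shares, it had a read of 5 and of 10. More of the first than of the second were read in 109 of 147 positive nuclei (74.1%) and 3 of 88 negative nuclei (3.41%). These genes were chosen on the same nuclei, so the counts are a description. The 9 nuclei between the classes had medians of 5 and 7. Among them, 1 had an Npy4r read, none a Tmem100 read, 8 a Cd9 read and 7 an Ntng2 read.

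Positive nuclei also differed with their own Npy2r level. They were divided at the median of 139.3 CPM into a lower set of 73 nuclei and an upper set of 74, with medians of 77.2 and 235.9 CPM and of 10463 and 10363 genes. From negative nuclei over the lower to the upper set, the share with an Npy4r read was 9.09%, 35.6% and 68.9%, that of Sstr5 29.5%, 47.9% and 85.1%, and that of Tmem100 3.41%, 20.5% and 58.1%. Rgs4 was read in 12.5%, 31.5% and 63.5%, and Hoxa5 in 27.3%, 52.1% and 74.3%. Ntng2 ran the other way, at 79.5%, 41.1% and 25.7%. Mc4r did not follow this order, with 22.7%, 61.6% and 41.9%. Of 30 named genes past the share limit and higher, 26 were read more often in the upper set, and of 13 lower ones, 12 less often. These genes were chosen on the same nuclei, in classes set by the same Npy2r reads. The same count over all genes compared is not given here, so these counts are a description. The lower set stood on the same side of the negative class as all positive nuclei in all 43, which the choice of genes on these same nuclei largely fixes. Within the 147 positive nuclei, Spearman's rho with Npy2r was 0.45 for Hoxa5, 0.43 for Npy4r, 0.41 for Hoxb5 and 0.40 for Sstr5, given as a description, since these values share a library and its depth.

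**Figure D5:**
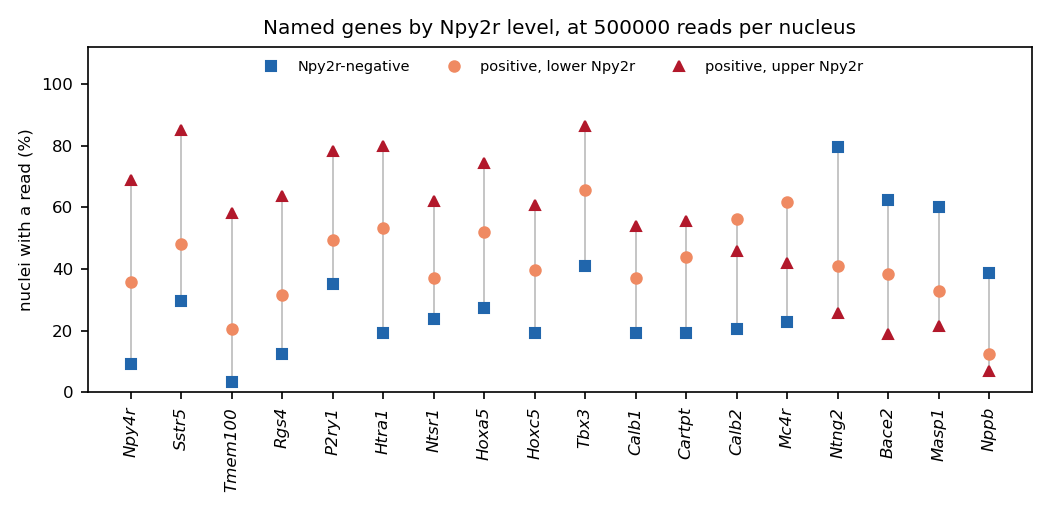
Share of nuclei with a read (vertical axis, %) for 18 named genes in Npy2r-negative nuclei (squares), the lower set of positive nuclei by Npy2r (circles) and the upper set (triangles). For Npy4r the points lie at 9.09%, 35.6% and 68.9%, while for Mc4r and Calb2 the lower set lies above the upper set.

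Within the positive class, some of the genes were read less often in nuclei that read another. Calb2 and Mc4r were less frequent in positive nuclei with an Npy4r read than in those without one. Calb2 was read in 23 of 77 positive nuclei with Npy4r (29.9%, 20.0 to 41.4) and 52 of 70 without it (74.3%, 62.4 to 84.0). Mc4r was read in 21 of 77 with Npy4r (27.3%, 17.7 to 38.6) and 55 of 70 without it (78.6%, 67.1 to 87.5). Calb2 and Mc4r went together, with Mc4r in 58 of 75 nuclei with Calb2 (77.3%) and 18 of 72 without it (25.0%). Hoxa5 was read in 62 of 77 with Npy4r (80.5%, 69.9 to 88.7) and 31 of 70 without it (44.3%, 32.4 to 56.7), and Ntsr1 in 62.3% and 35.7%. Sstr5 did not follow Npy4r, at 66.2% and 67.1%. With 1 library per closely correlated group, Calb2 was read in 31.4% of 70 nuclei with Npy4r and 75.0% of 68 without it.

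Cartpt and Cckar marked another divide among positive nuclei. Cartpt was read in 10 of 40 with a Cckar read (25.0%, 12.7 to 41.2) and 63 of 107 without one (58.9%, 49.0 to 68.3). Th was read in 34 of 40 with Cckar (85.0%, 70.2 to 94.3) and 43 of 107 without it (40.2%, 30.8 to 50.1), and Npy4r in 72.5% and 44.9%. Syt10 was lower with Cckar, at 50.0% and 89.7%. In nuclei with Cartpt, Tbx3 was read in 68 of 73 (93.2%, 84.7 to 97.7), against 44 of 74 without it (59.5%, 47.4 to 70.7). Rgs4 was read in 67.1% with Cartpt and 28.4% without it, Chrna6 in 68.5% and 33.8%, and Calb1 in 61.6% and 29.7%. In the negative class, Th was read in 39.3% of 28 nuclei with Cckar and 21.7% of 60 without it. With 1 library per closely correlated group, Th was read in 86.5% of 37 positive nuclei with Cckar and 38.6% of 101 without it. These pairs were picked after the values were seen, and no difference between the classes in pairing was tested.

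Positive nuclei also read genes that were more frequent in the negative class. Of the 12 genes named for the widest lower shares, 64 of 147 positive nuclei (43.5%) read 6 or more. Nppb was read in 14 positive nuclei, and 13 of these had an Ntng2 read (92.9%, 66.1 to 99.8), against 36 of the 133 without Nppb (27.1%, 19.7 to 35.5). In negative nuclei Ntng2 was read in 85.3% of 34 nuclei with Nppb and 75.9% of 54 without it. Masp1 was read in 78.6% of positive nuclei with Nppb (49.2 to 95.3) and 21.8% of those without it (15.1 to 29.8). Not all genes of this direction went that way, since Ephb1 was read in 35.7% (12.8 to 64.9) and 63.9% (55.1 to 72.1). Cd9, more frequent in the positive class, was read in 100% and 93.2%, and Tm4sf4 in 85.7% and 82.7%.

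Both classes had the markers of the named cell type. The median of 6 neuronal markers was 100% in each, and Gal and Adcyap1, peptides of visceral motor neurons, were read in 98.0% and 93.9% of positive nuclei, against 89.8% and 86.4% of negative nuclei. Of the 7 somatic motor markers the median share was 2.72% and 6.82%. Across the 13 lists of neuron and other cell type markers no gene passed the share limit except Th, which was under it with 1 library per closely correlated group. By level Mbp of oligodendrocytes also passed, read in 84.4% and 64.8%, 1.30 log2 units higher in positive nuclei. It was 1 of 5 compared markers of that list, whose summed level had a median of 46 CPM (0 to 1320) in positive and 41 CPM (0 to 2278) in negative nuclei, with none of 8 markers at 0 throughout. The part of these reads in the results was not tested.

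The share of positive nuclei differed between blocks of 96 nucleus numbers, with 37 positive and 23 negative nuclei in the first, 35 and 25 in the second, 42 and 14 in the third, and 33 and 26 in the fourth. The labels do not say whether a block is a plate. Of the 43 named genes past the share limit, 42 kept their direction within every block. The exception was Cbln2, read in 66.7% of positive and 71.4% of negative nuclei in the third. Agreement in direction is largely fixed by the choice of genes on these same nuclei. Npy4r was read in 51.4% and 17.4%, 45.7% and 12.0%, 47.6% and 0%, and 66.7% and 3.85%, from the first block to the last.

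Promoter windows from RefSeq (GRCm38.p6, 300 bases, 250 before and 50 after the start) were found for 41 of 57 higher and 12 of 16 lower symbols past the share limit, as 50 and 18 windows. They were searched on both strands for the NR4A element AAAGGTCA, a T-box core GGTGTGA, a homeobox core TAATTA, the E-box CACGTG and the cyclic AMP response element TGACGTCA. The last was in 5 of the 50 higher windows (Cartpt, Hlf, Mcam, Th and Wdr82) and none of the 18 lower, against 2.70% of the 16097 windows of the genes compared and 1.79% of all 32851 windows. The T-box core was in 3 higher and 2 lower windows (3.54% of windows of the genes compared, 3.98% of all), the homeobox core in 1 and 1 (3.50% and 5.29%), the E-box in 3 and 1 (8.91% and 7.15%) and the NR4A element in neither (1.23% and 1.51%). A match is a description of letters, not a site. The windows of Cartpt (chr13:99900634-99900933) and Th (chr7:142899946-142900245), both on the minus strand, are shown because these are the peptide and enzyme genes with a match, which is in capitals.
Cartpt: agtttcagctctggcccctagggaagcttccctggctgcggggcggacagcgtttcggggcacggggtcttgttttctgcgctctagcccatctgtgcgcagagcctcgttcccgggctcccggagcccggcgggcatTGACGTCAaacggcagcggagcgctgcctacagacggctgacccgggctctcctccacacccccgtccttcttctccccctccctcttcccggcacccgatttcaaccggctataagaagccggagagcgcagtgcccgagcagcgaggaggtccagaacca
Th: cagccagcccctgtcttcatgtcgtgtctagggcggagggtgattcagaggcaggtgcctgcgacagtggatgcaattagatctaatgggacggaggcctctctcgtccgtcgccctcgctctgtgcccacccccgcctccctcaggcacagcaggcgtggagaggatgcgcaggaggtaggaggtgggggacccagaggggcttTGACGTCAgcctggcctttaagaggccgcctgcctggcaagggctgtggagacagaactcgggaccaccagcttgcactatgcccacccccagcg

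Among nuclei that the rule left out, Npy2r was also read. Of 21 nuclei with a Cck read that met all other steps, 7 were at or above 5 CPM (33.3%, 14.6 to 57.0). Of 29 nuclei without a Tbx20 read, 4 had any Npy2r read (13.8%, 3.89 to 31.7) and 2 reached 5 CPM (6.90%, 0.846 to 22.8).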

How the data were processed

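Read counts per gene were deposited as 1 table of 29779 genes and 383 nuclei, as whole numbers without normalisation. Per the submitters' processing notes the build was GRCm38 and the tools were bcl2fastq, STAR, Picard, edgeR and Seurat 3, named without roles. The annotation, counting mode and use of strand are not given in the sources used here.

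From the deposited counts, nuclei were put in classes at full depth and then thinned to 500000 reads at random (Python 3.11.15, numpy 2.4.6, pandas 2.3.3, scipy 1.17.1). A gene was read with at least 1 read, was compared if read in at least 10% of compared nuclei, and passed at 25 points in share or 1 unit in mean log2(CPM + 1). The steps were checked on simulated data. Genes were named if always listed (the neuropeptide Y list and 7 others), if a listed gene past the share limit, or if among the 12 widest shares or 6 widest levels in each direction, and a few genes of these groups are not reported here. Members and lists were chosen with earlier results of these data known. Thinning, detection, filter, class limits, blocks and closely correlated libraries were varied.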

Additional observations from a re-analysis of the deposited data

Results flagged for a closer look

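Npy2r reads appeared in nuclei outside the compared classes, in more nuclei than the 3 that a count of 0 allows, a limit that any 4 nuclei pass. They were in 7 of 21 nuclei with a Cck read, 33.3%, where 3 nuclei would be 14.3%. They were in 4 of 29 nuclei without a Tbx20 read, 13.8% (3.89 to 31.7), where 3 nuclei would be 10.3%, a value inside that interval, and 2 of them reached 5 CPM. Of 21 nuclei under the minimum of reads but with at least 1000 genes, 8 had an Npy2r read, 38.1% (18.1 to 61.6), at a median of 137519 reads. These nuclei entered no comparison.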

How the results depend on the processing

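No paired analysis was possible because all nuclei form 1 group without replicate animals. Counts are given as higher and lower by share, then higher and lower by level, against 62, 25, 302 and 178. They were 128, 108, 459 and 340 among the 76 positive and 41 negative nuclei with a gene number in the interquartile range. Within blocks of 96 nucleus numbers, whose classes are small, they were 354, 179, 818 and 616 in the first, 861, 417, 2007 and 770 in the second, 364, 634, 791 and 1115 in the third, and 320, 182, 972 and 669 in the fourth. Without thinning, 15 genes were lower by share. A limit of 35 points gave 16 and 4, a limit of 1.5 log2 units 93 and 65, and log2(CPM + 10) 88 and 63. All other counts stayed within 1.5 times.

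Outside the blocks, 508 of 516 share differences of the 43 named genes past the limit stayed inside the 95% interval of the difference. The other 8 left it and none reversed. These alternatives largely reuse the nuclei that chose the genes, so this agreement is largely fixed by that choice. With a higher minimum of genes, the classes stayed at 147 positive and 88 negative nuclei, so those values could not differ. Without thinning Bche was at 13.6 and Ephb1 at -19.7 points. Of the 43, 26 passed the limit in all 12 alternatives and 17 were under it in at least 1, most often Th (7), Ntsr1 (6), Crhr1 (5) and Hoxb4 (4). In the blocks, which divide the same nuclei that chose the genes, 1 of 172 reversed, Cbln2 at -4.76 points in the third. The causes were not tested. Depth limits genes near 1 read, since 2 CPM is the smallest value, and no value covers variation between animals.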
